A study of Mus musculus with 6 samples.

Results

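Interferon-stimulated effector genes are the antiviral and immune genes that a cell switches on when interferon binds its receptors. The list described here holds 48 mouse genes chosen by name, in 15 groups by role. Of these, 47 had at least 1 probe of that name on the array and 46 passed the filter on dim signal, among 19583 features tested in all. No probe carried the name Ifi205, and both Cxcl9 probes missed the requirement of signal well above background on every array of at least 1 group. All 46 tested genes were well above background on all 6 arrays, so the filter did not favour the group in which a gene was brighter.

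In the pathway, type I interferons bind the receptor of Ifnar1 and Ifnar2, the kinases Jak1 and Tyk2 become active, and a complex that holds Stat2 and Irf9 binds interferon-stimulated response elements (ISREs) in promoters. Interferon gamma acts through its own receptor, and its target genes carry gamma-activated sites (GAS). The products restrict viruses at many steps: they sense viral RNA, block its translation, degrade it, deplete nucleotides, or trap virions at the membrane. Cultured macrophages are known to keep part of this programme active without added interferon.

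The cells were bone marrow-derived macrophages of C57BL/6 mice, grown out with serum and L929-conditioned medium, which supplies the growth factor M-CSF, in both groups. BMDM_ADP cells had 100 µM ADP for 6 h, and BMDM_CON cells had a control treatment of the same 6 h, whose agent the labels do not name. Each group held 3 samples on 3 one-colour arrays, described as independent experiments on different donor mice. C57BL/6 is one of the many inbred strains with a defective Mx1 allele, so its Mx1 transcript is a marker of interferon signalling rather than of a working antiviral protein.

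A level below is the log2 of a probe's signal after division by its array's 75th percentile (455 to 549 on the linear scale). Differences are ADP minus CON on that log2 scale, with the SE from limma. The arrays lay on 2 slides. Slide 1 carried ADP 1 and CON 1 and 2, and slide 2 carried ADP 2 and 3 and CON 3. Slides were the main axis of variation (45.0% of the variance on the leading principal component), so values from a slide-blocked fit and from each slide alone stand beside the results. The macrophage markers Csf1r, Lyz2, Adgre1 and Cd14 were well above background on all arrays, as were the other 4 of the 8 listed. In bulk RNA, fewer cells expressing a gene and less RNA per cell cannot be told apart.

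Most of the effector genes read lower on the ADP arrays, by amounts that differed between families. The 2 Mx genes, the 3 Ifit genes, Cmpk2 with Rsad2, and Ifi203 of the p200 family read lower, with differences of -0.80 to -0.29, or 1.74-fold to 1.23-fold. GTPases of the GBP and IRG families ran from -0.33 to -0.10 and the nucleic acid sensors from -0.34 to 0.05, and the Oas family and the membrane proteins were near 0. Irf7 and Trim25 stood on the other side of 0. Over the 46 genes the median difference was -0.17, beside 0.00 over all features, and 32 of 46 were below 0, beside 49.2% of all features.

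No effector gene passed the test over all features. With limma and Benjamini-Hochberg adjustment, 0 of 19583 features (0%) had an adjusted p under 0.05, and the smallest among the 46 genes was 0.262. At an unadjusted p under 0.05, 8 effector genes were lower, or 17.4% of them, beside 6.18% of all features. The 8 were Mx1, Cmpk2, Ifi203, Ifit2, Ifit3, Igtp, Isg20 and Ddx58. Without ADP 3 that count was 3, beside 519 of the 19583 features. Without CON 3 it was 5, beside 1058 of the 19583 features. In the value table not scaled between arrays it was 2, with 326 of all features lower and 1228 higher. After scaling, 1210 of all features were lower and 1281 higher. In the other direction 1 was higher, Irf7, or 2.17%, beside 6.54% of all features. All ADP arrays lay below all CON arrays for 14 genes, or 30.4% beside 9.72% of features, and above them for 1, Irf7, beside 9.67%. Signal was at least 1.5-fold lower for 4 genes, Mx1, Cmpk2, Ifit2 and Ifi203 (8.70% beside 2.65% of features), and at least that much higher for 0 (beside 4.21%). With 3 arrays against 3, a permutation test of a single gene cannot go below p = 0.1, so none was run.

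With the slide as a block, 37 of 46 genes were below 0 and the median was -0.25, beside 51.7% and -0.01 over all features. At an unadjusted p under 0.05 in that limma fit, 26 were lower (56.5% beside 13.6% of features) and 2 were higher (4.35% beside 10.8%), while no feature reached an adjusted p under 0.05 (smallest 0.0735). When intensity-trended, robust variances were added to the slide block, limma called 15 effector genes lower (32.6% beside 5.38% of features) and 1 higher (2.17% beside 4.51%) at an adjusted p under 0.05. The 15 were Mx1, Mx2, Ifit2, Ifit3, Cmpk2, Rsad2, Ifi203, Usp18, Dtx3l, Parp9, Gbp3, Igtp, Ddx58, Oas1a and Ifi44, and the 1 was Trim25. The median of the 46 genes depended on single arrays: it was -0.06 without CON 3 and -0.09 without ADP 1. In the unscaled value table it was -0.09, where the median of all features was 0.08.

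**Figure D1:**
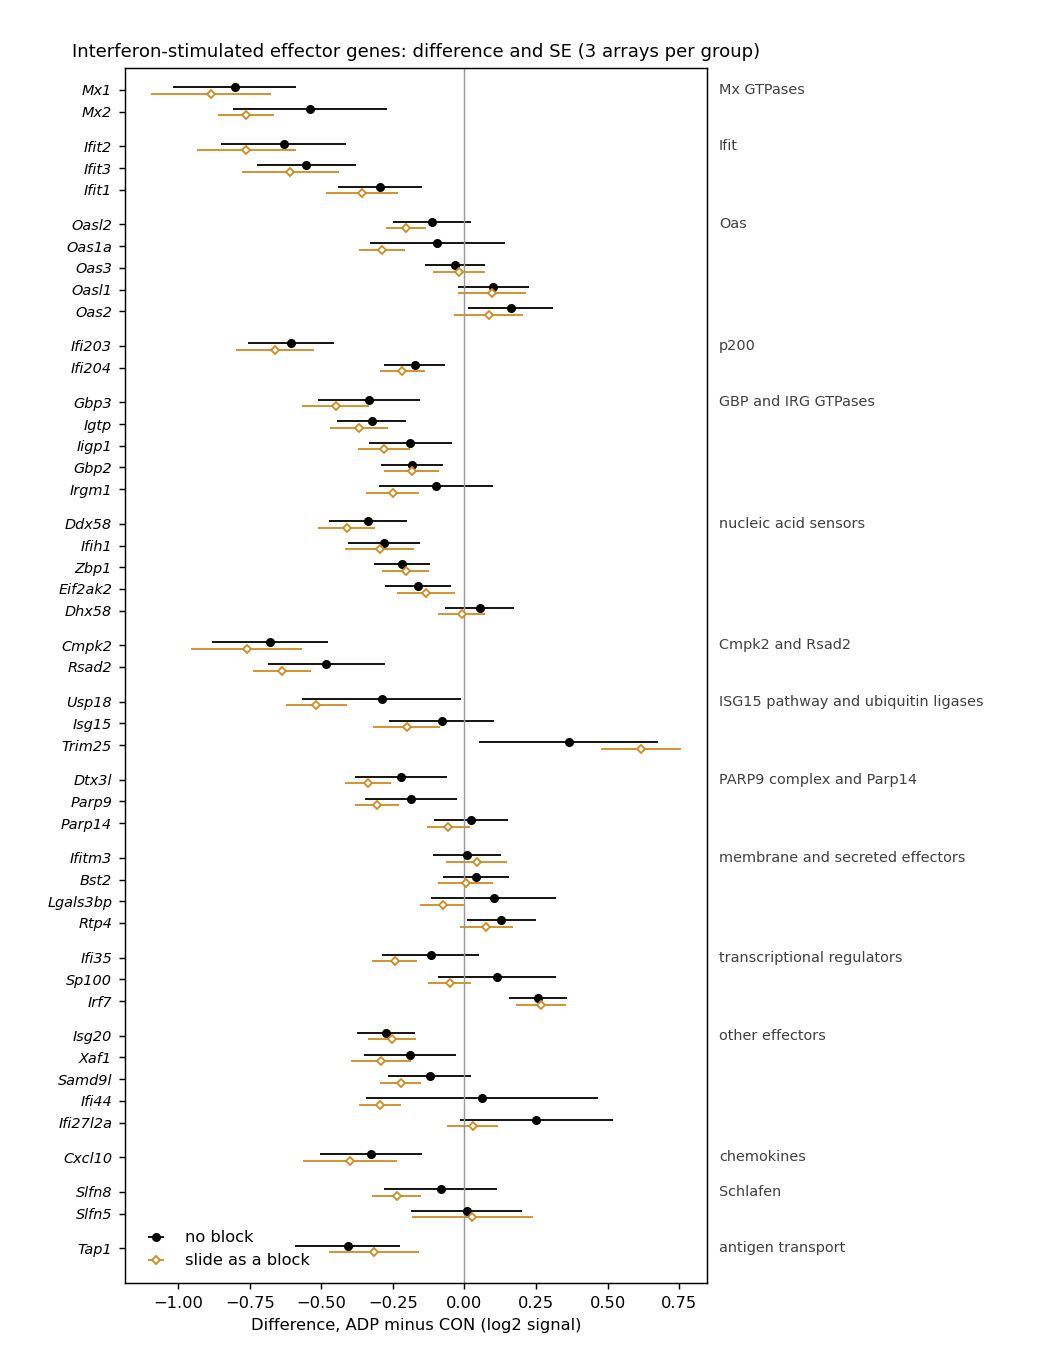
Differences between ADP and CON macrophages (log2 signal, horizontal axis) for the 46 tested effector genes, grouped by family, with the SE as bars. Black points are the fit on 3 ADP and 3 CON arrays without a block and open diamonds the fit with the slide as a block; without the block Mx1 lies farthest to the left, at -0.80, followed by Cmpk2, Ifit2 and Ifi203, and Trim25 farthest to the right, at 0.36.

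The Mx genes encode dynamin-like GTPases that bind viral nucleoproteins. Mx1 (probe on chromosome 16, 97668644 to 97668703, mouse build mm9) read 1.69, 2.26 and 1.52 on ADP arrays 1 to 3, against 2.48, 2.58 and 2.82 on CON arrays 1 to 3. Every ADP array was below every CON array, with means of 1.82 ± 0.39 and 2.63 ± 0.18 (SD, n = 3 each). The difference of -0.80 ± 0.21 (SE) corresponds to 1.74-fold lower signal (limma adjusted p = 0.268). It was -0.84 within slide 1 and -0.93 within slide 2, and the limma adjusted p was 0.0312 with the slide block and trended, robust variances. Mx2, at 1.01, 1.70 and 1.52 with ADP against 1.62, 1.79 and 2.44 in CON, overlapped between groups, because both groups read higher on slide 2. Within slides the ADP arrays were all lower, with mean differences of -0.70 and -0.83, and the blocked difference was -0.76 ± 0.10 (SE, limma adjusted p = 0.0735, or 0.0210 with trended, robust variances). Without CON 3 the unblocked difference of Mx2, -0.54, was -0.30.

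The Ifit proteins are antiviral, and their member Ifit1 binds viral RNA that lacks the host's cap methylation and blocks its translation. Ifit2 (chromosome 19, 34650244 to 34650303, mm9) read 1.82, 2.497 and 1.90 with ADP, against 2.53, 2.61 and 2.97 in CON. Ifit3 (chromosome 19, 34663105 to 34663164) read 4.002, 4.44 and 3.85 with ADP, against 4.56, 4.61 and 4.78 in CON. In both genes ADP 2 was the highest ADP array and still lay below the lowest CON array. The differences were -0.63 ± 0.22 for Ifit2 and -0.55 ± 0.17 for Ifit3 (SE, limma adjusted p = 0.323 and 0.298). With the slide block and trended, robust variances the limma adjusted p was 0.0252 for Ifit2 and 0.0415 for Ifit3. Ifit1, the family member that recognises the cap itself, differed by -0.29 ± 0.15 and its groups overlapped, since ADP 2 (2.70) lay above CON 1 (2.66). The Ifit3 probe was not checked against its near-identical neighbour Ifit3b, which could share its signal.

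Cmpk2 and Rsad2 lie side by side in the genome. Rsad2 encodes viperin, which makes a chain-terminating nucleotide from CTP, and Cmpk2 encodes a mitochondrial nucleotide kinase. Cmpk2 (chromosome 12, 27164119 to 27164178, mm9) read 1.94, 2.34 and 1.71 with ADP, against 2.58, 2.505 and 2.95 in CON. Its difference was -0.68 ± 0.20 (SE, limma adjusted p = 0.287), with -0.60 and -0.92 within slides 1 and 2, and its second probe gave -0.54 ± 0.20. Rsad2 (chromosome 12, 27127859 to 27127918) read 3.60, 3.94 and 3.89 with ADP, against 4.01, 4.16 and 4.70 in CON. Both genes were thus lower on every ADP array than on any CON array. The Rsad2 difference was -0.48 ± 0.21 (SE, -0.28 without CON 3), and with the slide as a block it was -0.64 ± 0.10 (limma adjusted p = 0.0735, or 0.0210 with trended, robust variances).

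The p200 family encodes PYRIN and HIN domain proteins that bind DNA in the nucleus and cytosol. Ifi203 (chromosome 1, 175850536 to 175850595, mm9) had the smallest p of the list. It read 3.42, 3.85 and 3.40 with ADP, against 4.13, 4.10 and 4.25 in CON. The groups stood apart, with a difference of -0.61 ± 0.15 (SE, limma adjusted p = 0.262), and the within-slide differences were -0.70 and -0.63. All 4 Ifi203 probes read lower, at -0.59 to -0.86. Ifi204 differed by -0.17 ± 0.11 without overlap between groups. The genes of this family are close in sequence, and how far the probes share their transcripts was not tested.

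**Figure D2:**
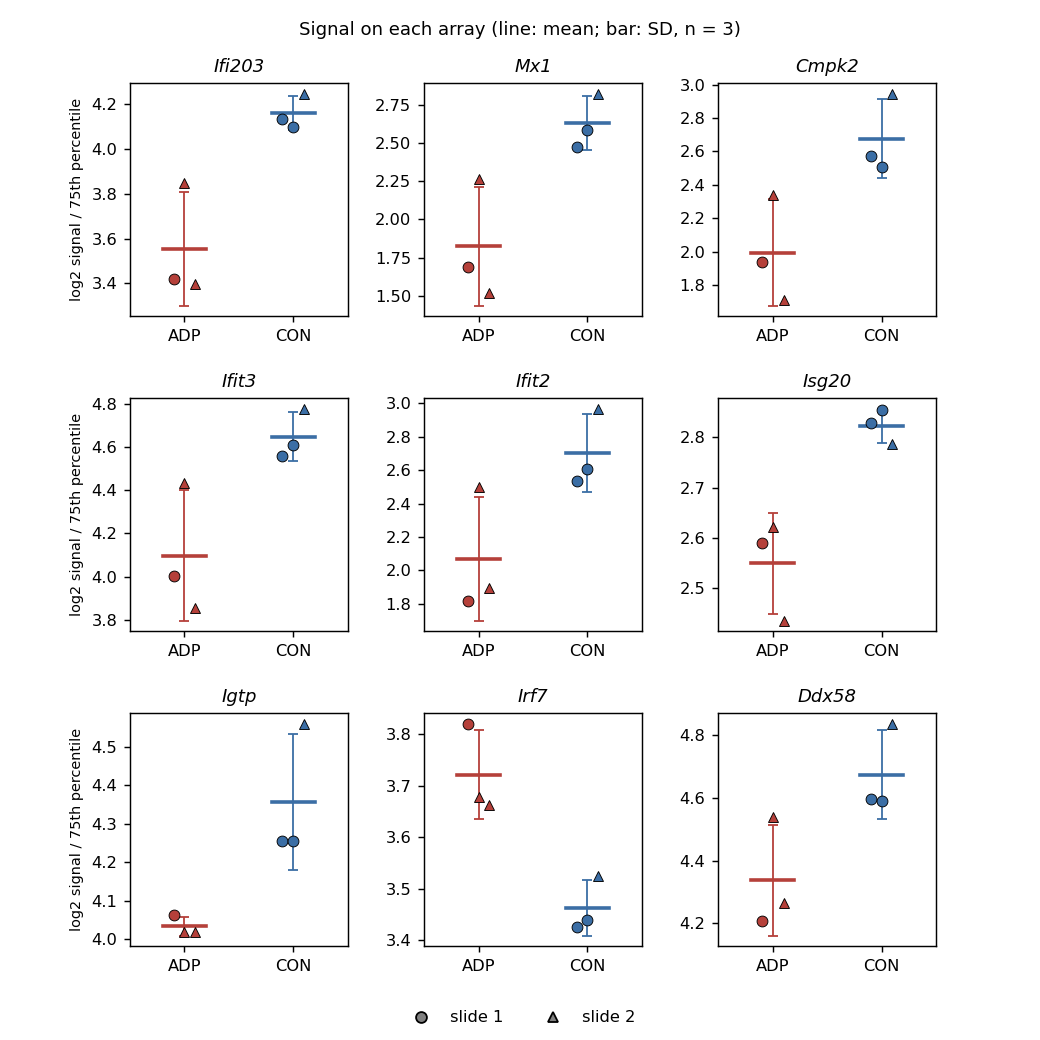
Signal (log2, divided by the 75th percentile before the log, vertical axis, with its own range in each panel) on every array for the 9 effector genes at an unadjusted limma p under 0.05, ADP left and CON right; lines are means, bars the SD of 3 arrays, circles slide 1 and triangles slide 2. Every ADP array lies below every CON array in 8 panels and above in the Irf7 panel.

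Promoters of 5 of the described genes are shown because interferon-activated factors act there and the genes read lower to unequal degrees. The sequences are RefSeq's for build GRCm38.p6, from 250 bases before to 50 bases after the annotated start, written 5′ to 3′ on the gene's strand. Capitals mark the ISRE letters searched, GAAANNGAAA on either strand (TTTCNNTTTC when read from the other one).
Ifit3 promoter, chr19:34583279-34583578, plus strand: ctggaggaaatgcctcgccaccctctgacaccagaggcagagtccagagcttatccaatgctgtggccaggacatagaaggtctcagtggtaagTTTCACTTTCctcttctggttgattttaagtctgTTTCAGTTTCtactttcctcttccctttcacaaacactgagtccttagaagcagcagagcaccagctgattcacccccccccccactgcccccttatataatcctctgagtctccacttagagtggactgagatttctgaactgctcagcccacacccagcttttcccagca
Ifi203 promoter, chr1:173942443-173942742, minus strand: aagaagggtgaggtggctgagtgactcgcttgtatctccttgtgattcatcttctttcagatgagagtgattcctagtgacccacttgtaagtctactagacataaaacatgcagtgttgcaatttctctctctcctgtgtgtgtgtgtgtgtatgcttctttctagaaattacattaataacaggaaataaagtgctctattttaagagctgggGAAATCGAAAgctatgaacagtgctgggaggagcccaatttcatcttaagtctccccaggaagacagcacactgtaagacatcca
Rsad2 promoter, chr12:26456403-26456702, minus strand: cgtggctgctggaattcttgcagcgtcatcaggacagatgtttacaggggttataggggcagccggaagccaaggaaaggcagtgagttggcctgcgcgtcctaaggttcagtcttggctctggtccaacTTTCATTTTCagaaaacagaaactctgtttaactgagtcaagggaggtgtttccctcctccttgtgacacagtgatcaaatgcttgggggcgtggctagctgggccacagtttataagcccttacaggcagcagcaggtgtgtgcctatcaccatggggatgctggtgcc
Isg15 promoter, chr4:156200769-156201068, minus strand: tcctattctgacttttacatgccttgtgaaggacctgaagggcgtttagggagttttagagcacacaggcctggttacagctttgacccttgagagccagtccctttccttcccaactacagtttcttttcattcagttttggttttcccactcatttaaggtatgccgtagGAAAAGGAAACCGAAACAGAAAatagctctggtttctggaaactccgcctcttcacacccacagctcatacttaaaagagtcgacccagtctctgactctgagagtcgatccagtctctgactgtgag
Cmpk2 promoter, chr12:26468965-26469264, plus strand: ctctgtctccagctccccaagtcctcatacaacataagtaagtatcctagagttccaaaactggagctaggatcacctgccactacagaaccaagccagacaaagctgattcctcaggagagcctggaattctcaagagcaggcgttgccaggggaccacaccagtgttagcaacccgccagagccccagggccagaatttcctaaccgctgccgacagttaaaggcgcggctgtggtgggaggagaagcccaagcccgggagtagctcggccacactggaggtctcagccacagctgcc

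The Ifit3 window held 2 matches, beginning at -156 and -122 relative to the annotated start. In Ifi203 and Rsad2 there was 1 match each, at -35 and -120, while the Cmpk2 window held none. RefSeq gives Ifi203 a second annotated start, whose window held no match. The Isg15 window held 3 overlapping matches, the first beginning at -78 and the last at -66. Isg15 differed by -0.08 ± 0.18 (SE) without a block and by -0.20 ± 0.12 with the slide block. RefSeq windows were given for 36 of the 48 listed genes. Of these 36, 20 (55.6%) held the ISRE letters, compared with 3.99% of 27025 genes with a window, and 8 (22.2%) held the GAS letters TTCNNNGAA, compared with 9.55%. ISRE and GAS matches overlapped in the windows of Bst2 and Ifitm3. Among tested genes, the 19 with the ISRE letters had a median difference of -0.18 (16 below 0), and the 15 with a window but no match had -0.12 (9 below 0). The 12 tested genes without a window, Mx1 and Mx2 among them, had -0.18 (7 below 0). With the slide as a block the medians were -0.29, -0.24 and -0.21, in that order. A match is only a run of letters, and a window without one says nothing of the factor.

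Among the GTPases of the GBP and IRG families, all 5 tested members (Gbp2, Gbp3, Igtp, Irgm1 and Iigp1) were below 0, with a median of -0.19. Igtp (chromosome 11, 58020927 to 58020986, mm9), also called Irgm3, read 4.06, 4.02 and 4.02 with ADP, against 4.26, 4.25 and 4.56 in CON. The ADP arrays were tightly grouped below all CON arrays, and the difference was -0.32 ± 0.12 (SE, limma adjusted p = 0.350). It was -0.19 within slide 1 and -0.54 within slide 2. Gbp3 differed by -0.33 ± 0.18 with overlapping groups, and by -0.45 ± 0.12 with the slide block. Iigp1 differed by -0.19 ± 0.15, Gbp2 by -0.18 ± 0.11 and Irgm1 by -0.10 ± 0.20. The dimmer probes of Iigp1 and Irgm1 gave -0.44 ± 0.17 and -0.21 ± 0.14. With the slide block and trended, robust variances, Gbp3 and Igtp passed (limma adjusted p = 0.0360 and 0.0366).

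Of the 5 nucleic acid sensors 4 were below 0, with a median of -0.22. Ddx58 encodes RIG-I and Ifih1 encodes MDA5, helicases that detect viral RNA and signal through MAVS, and Dhx58 encodes LGP2, a related helicase without the signalling domain. Ddx58 (chromosome 4, 40151893 to 40151952, mm9) read 4.21, 4.54 and 4.27 with ADP, against 4.60, 4.59 and 4.84 in CON. The groups did not overlap, but ADP 2 came close to the CON arrays of slide 1. The difference was -0.34 ± 0.14 (SE, limma adjusted p = 0.380), and -0.41 ± 0.10 with the slide block (0.0258 with trended, robust variances). Ifih1 differed by -0.28 ± 0.13 and the DNA and Z-RNA sensor gene Zbp1 by -0.22 ± 0.10, both without overlap. The second probes of Ddx58 and Ifih1 read -0.24 ± 0.13 and -0.36 ± 0.12, while the second Zbp1 probe read 0.35 ± 0.32, the other way. Eif2ak2, which encodes the RNA-activated kinase PKR, differed by -0.16 ± 0.11, while Dhx58 differed by 0.05 ± 0.12.

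The Oas family, whose products make the oligoadenylates that activate RNase L, showed no common shift. Of its 5 members 3 were below 0, the median was -0.03, and the range ran from -0.11 for Oasl2 to 0.16 for Oas2. Oas2 had the smallest p of the family and read 5.69, 5.91 and 6.14 with ADP, against 5.59, 5.83 and 5.84 in CON. Its groups overlapped, and the difference was 0.16 ± 0.15 (SE, limma adjusted p = 0.731). Oas3 differed by -0.03 ± 0.11 and Oasl1 by 0.10 ± 0.12. Oas1a differed by -0.10 ± 0.24 on all arrays (-0.26 ± 0.13 on its dimmer probe), where slide 2 read higher in both groups. With the slide block its difference was -0.29 ± 0.08, and it passed with trended, robust variances (limma adjusted p = 0.0277).

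The ubiquitin-like modifier gene Isg15 overlapped between groups, at 5.56, 6.16 and 5.85 with ADP against 5.77, 5.91 and 6.13 in CON. Within slides 1 and 2 it differed by -0.27 and -0.13, and its second probe gave 0.19 ± 0.36 (SE) without a block. Usp18, which removes ISG15 from proteins and restrains the interferon receptor, differed by -0.29 ± 0.28 (SE, -0.04 without CON 3). With the slide block its difference was -0.52 ± 0.11, and the limma adjusted p was 0.0215 with trended, robust variances. Trim25, the ubiquitin ligase that activates RIG-I, read 8.003, 6.91 and 7.31 with ADP, against 7.29, 7.20 and 6.63 in CON on its brighter probe. Those groups overlapped, and the difference was 0.36 ± 0.31, or 0.06 without ADP 1 and 0.61 without ADP 2. Within slides ADP was higher, by 0.76 and 0.48, and the gene passed with the slide block and trended, robust variances (limma adjusted p = 0.0231). The other Trim25 probe gave -0.01 ± 0.10. The 2 Trim25 probes thus differ, and a result for the gene rests on the brighter one, whose coordinates in the files span chromosome 11, 88874956 to 88881181.

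Parp9 and Dtx3l encode partners of one ADP-ribosylating ubiquitin ligase complex and are transcribed from a shared promoter region. Dtx3l (chromosome 16, 35926655 to 35926714, mm9) read 3.49, 3.94 and 3.79 with ADP, against 3.85, 3.85 and 4.18 in CON. ADP 2 lay above the CON arrays of slide 1, and the difference was -0.22 ± 0.16 (SE, limma adjusted p = 0.655). Its dimmer probes gave -0.20 ± 0.13 and -0.40 ± 0.14. The blocked differences were alike, at -0.34 ± 0.08 for Dtx3l and -0.31 ± 0.08 for Parp9 (limma adjusted p = 0.0278 and 0.0361 with trended, robust variances). Parp14, a related mono-ADP-ribosyltransferase gene, differed by 0.02 ± 0.13, or -0.06 with the slide block.

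Genes of membrane and secreted proteins were the only multi-gene group with no member below 0. Ifitm3, which hinders the fusion of virus with endosomes, differed by 0.01 ± 0.12, Bst2, which encodes the virion tether tetherin, by 0.04 ± 0.12, and Lgals3bp by 0.10 ± 0.22. Rtp4, which encodes a chaperone of G-protein-coupled receptors, had the smallest p of the group and read 6.63, 6.94 and 6.78 with ADP, against 6.56, 6.69 and 6.71 in CON. The groups overlapped, and the difference was 0.13 ± 0.12 (SE, limma adjusted p = 0.732). With quantile normalization Ifitm3, Bst2 and Lgals3bp were on the other side of 0, at -0.13, -0.07 and -0.07, and with the slide block Lgals3bp was at -0.08.

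Irf7, the transcription factor that amplifies type I interferon production, was the 1 effector gene whose ADP arrays all lay above its CON arrays. Its probe (chromosome 7, 148450664 to 148451014, mm9) read 3.82, 3.68 and 3.66 with ADP, against 3.42, 3.44 and 3.52 in CON. The difference of 0.26 ± 0.10 (SE) is a 1.196-fold higher signal (limma adjusted p = 0.369). Within slides it was 0.39 and 0.15, and it did not pass with the slide block and trended, robust variances (limma adjusted p = 0.0667). The nuclear body gene Sp100 differed by 0.11 ± 0.21 and Ifi35 by -0.12 ± 0.17.

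Of the remaining effectors, the exonuclease gene Isg20 (chromosome 7, 86065136 to 86065195, mm9) read 2.59, 2.62 and 2.43 with ADP, against 2.83, 2.85 and 2.79 in CON. These groups were apart on both slides, with a difference of -0.27 ± 0.10 (SE, limma adjusted p = 0.348) and -0.25 and -0.26 within slides. Its dimmer probe gave -0.08 ± 0.16. Ifi44 moved with the slide in both groups. It read 1.14, 2.18 and 2.13 with ADP and 1.38, 1.39 and 2.505 in CON. The unblocked difference was 0.06 ± 0.41, while the 3 ADP arrays were each below the CON arrays of their slide and the blocked difference was -0.30 ± 0.07 (limma adjusted p = 0.0475 with trended, robust variances). Xaf1, which encodes a partner of the caspase inhibitor XIAP, differed by -0.19 ± 0.16, Samd9l by -0.12 ± 0.15 and Ifi27l2a by 0.25 ± 0.27.

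Cxcl10, a chemokine gene that draws activated T cells, read 1.89, 2.02 and 1.75 with ADP, against 1.90, 2.23 and 2.52 in CON. ADP 2 lay above CON 1, and the difference was -0.33 ± 0.18 (SE, limma adjusted p = 0.527, and -0.18 without CON 3). The probes for the related Cxcl9 were well above background on 2 of 6 or 3 of 6 arrays, with no level given here. Tap1, which encodes a subunit of the peptide transporter for MHC class I, read 0.80, 0.52 and 0.11 with ADP, against 0.94, 0.87 and 0.84 in CON. The ADP arrays were lower and more spread, and the difference of -0.41 ± 0.18 (SE, limma adjusted p = 0.433) was -0.22 without ADP 3. The Schlafen genes straddled 0, with Slfn8 at -0.08 ± 0.20 and Slfn5 at 0.01 ± 0.20. Slfn8 read 2.94, 3.41 and 3.42 with ADP, against 3.10, 3.29 and 3.64 in CON, with overlapping groups.

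Comparison within slides uses different arrays on each side and shares no control. ADP lay below CON without overlap on both slides for 31 effector genes, or 67.4% beside 23.4% of features. It lay above on both for Irf7 and Trim25, or 4.35% beside 20.2% of features. Counting mean differences alone, 35 genes were lower on both slides (76.1% beside 32.4%) and 3 were higher, Irf7, Trim25 and Rtp4 (6.52% beside 29.7%). The median difference of the 46 genes was -0.21 within slide 1 and -0.26 within slide 2, beside 0.01 and -0.03 over all features. Across the 46 genes, which are not independent replicates, the differences of slide 1 and slide 2 correlated at r = 0.77, and across all 19583 features at r = 0.46. The genes at the low end on one slide, led by Mx1, Mx2, Ifit2, Cmpk2 and Ifi203, were also low on the other. Slfn5 differed by -0.31 within slide 1 and 0.36 within slide 2.

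**Figure D3:**
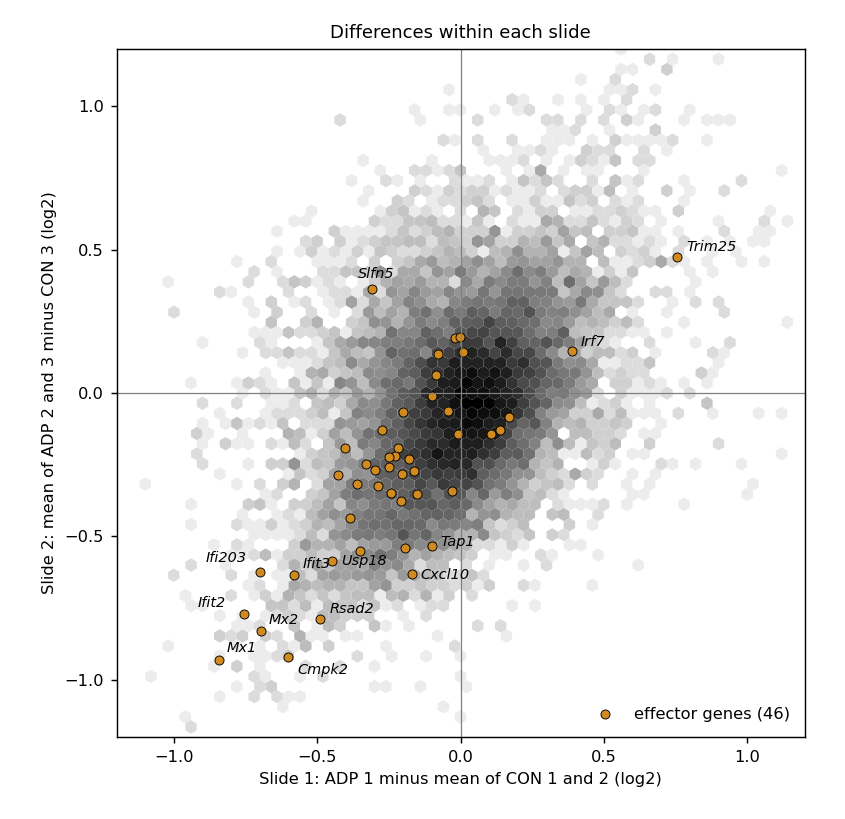
Difference within slide 1 (ADP 1 minus the mean of CON 1 and 2, horizontal axis, log2) against that within slide 2 (mean of ADP 2 and 3 minus CON 3, vertical axis, log2), with orange points for the 46 effector genes and grey hexagons for all features within the axes, darker where more features lie (log scale). Most effector genes lie in the lower left, down to -0.84 and -0.93 for Mx1.

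The level of the list itself moved between slides. In CON macrophages the median effector gene read 0.26 higher on slide 2 than on slide 1, beside 0.07 over all features. On slide 2, 38 of 46 genes were higher in CON, beside 11339 of 19583 features. Relative to each gene's mean over all arrays, the list's median was -0.26, 0.08 and -0.09 on ADP arrays 1 to 3 and -0.03, 0.01 and 0.27 on CON arrays 1 to 3. ADP 1 held the lowest of the 6 values for 24 genes and CON 3 the highest for 30. The lowest and highest arrays were not counted over all features. Slide and donor mouse cannot be told apart here. Siglech, a marker of plasmacytoid dendritic cells, also moved with the slide, at 5.19, 7.31 and 7.26 with ADP and 5.48, 5.19 and 7.13 in CON. Of the other 3 markers of those cells, Cox6a2 differed by 0.07 ± 0.12 and Ccr9 by 0.04 ± 0.12 (SE), and Klk1 did not pass the filter. Cox6a2 read 0.72, 0.83 and 0.95 with ADP and 0.71, 0.64 and 0.93 in CON. Ccr9 went the other way from Siglech between slides, at -1.99, -2.19 and -2.17 with ADP and -2.08, -2.08 and -2.30 in CON. The summed linear signal of the 3 measured markers was 38.4 to 161 times the 75th percentile with ADP and 38.3 to 142 in CON. Most of that sum was Siglech (mean level 6.59 with ADP, the next being Cox6a2 at 0.83). The part of these markers' cells in the result was not tested.

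**Figure D4:**
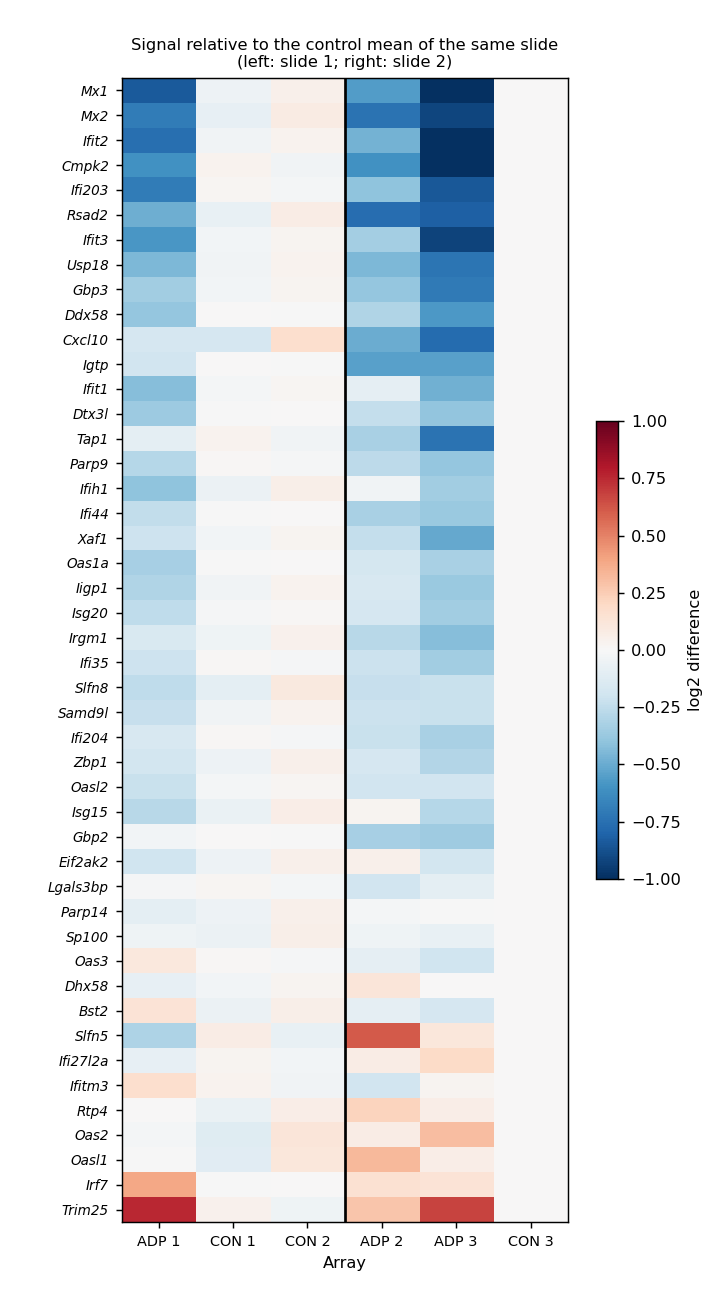
Signal of the 46 effector genes on each array (columns) relative to the mean of the CON arrays of the same slide (log2, blue lower and red higher, colours ending at 1 in either direction), genes ordered by the slide-blocked difference; CON 3 is 0 by construction, as the single control of slide 2. The upper rows, from Mx1 to Ddx58, are blue on all 3 ADP arrays, with ADP 3 the lowest of the 3 arrays in each.

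Upstream, most receptor and signalling genes also read lower with ADP. Of 10 tested, 8 were below 0 (median -0.13), beside 49.2% of all features. An unadjusted limma p under 0.05 was found for 3 of them, all lower, beside 6.18% of features, and 0 reached an adjusted p under 0.05. Stat2 differed by -0.36 ± 0.10, Ifngr1, which encodes the ligand-binding chain of the interferon gamma receptor, by -0.37 ± 0.10 and the kinase gene Tyk2 by -0.32 ± 0.13 (SE, limma adjusted p = 0.273, 0.279 and 0.390). Stat2 and Ifngr1 passed with the slide block and trended, robust variances (limma adjusted p = 0.0210 each), beside 5.38% of all features called lower there. Of 20 interferon genes listed, 8 were tested, and none had an unadjusted p under 0.05. Ifnb1, which encodes interferon beta, was well above background on all 6 arrays, at -3.96, -3.95 and -4.11 with ADP and -4.61, -4.35 and -3.83 in CON. It differed by 0.26 ± 0.20 with overlapping groups, and by -0.004 with normexp background correction. Within slides 1 and 2 the Ifnb1 difference was 0.52 and -0.20. Ifna5 differed by 0.30 ± 0.19 and Ifnab by -0.21 ± 0.15.

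Genes that induce interferon had a median of -0.06, with 0 of 14 tested at an unadjusted p under 0.05. Tmem173, which encodes the DNA-sensing adaptor STING, differed by -0.40 ± 0.18 (SE, -0.52 with the slide block), Tlr3 by -0.19 ± 0.13 and Unc93b1, a chaperone of endosomal Toll-like receptors, by 0.14 ± 0.09. Negative regulators had a median of -0.04, and 0 of 8 had an unadjusted p under 0.05. Of all features, 6.18% were lower and 6.54% higher at that limma threshold. The phosphatase genes Ptpn2 and Ptpn6 differed by 0.18 ± 0.10 and -0.39 ± 0.26, and Irf2 by -0.17 ± 0.11. With the slide block and trended, robust variances 1 gene passed in each list, Tmem173 and Ptpn6, both lower, beside 5.38% of all features.

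A second list of interferon-stimulated genes outside the 48 had 68 tested genes, with a median of -0.16 and 47 below 0. At an unadjusted limma p under 0.05, 14 were lower and 2 higher, beside 6.18% and 6.54% of all features. When the slide block and trended, robust variances were used, 17 were called lower and 2 higher, beside 5.38% and 4.51% of features. Parp12, a mono-ADP-ribosyltransferase gene, differed by -0.47 ± 0.11. The transmembrane genes Ifitm1 and Ms4a4c went the other way, by 1.38 ± 0.26 and 0.40 ± 0.10 (limma adjusted p = 0.260 to 0.262 for these 3). Ifitm1 read 2.07, 1.503 and 2.26 with ADP, against 0.65, 0.88 and 0.16 in CON, without overlap, while its relative Ifitm3 differed by 0.01.

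Markers of other cells were set beside these values. The neutrophil list had 5 of 8 genes tested, all above 0 without a block, with a summed signal of 26.1 to 31.7 with ADP and 22.5 to 24.4 in CON. Most of that sum was S100a8 (mean level 4.67 with ADP, the next being Elane at 1.36), which differed by 0.32 ± 0.12 (SE). Within slide 2, S100a9 and Elane were below 0, at -0.57 and -0.11, and the others above. Of the T cell, B cell and conventional dendritic cell lists, 2, 1 and 1 of 4 genes each were tested, and none of the 4 erythroid markers passed the filter. The 4 fibroblast markers were all above 0 without a block, with a median of 0.17 (0.26 with the slide block). They summed to 5.13 to 5.66 with ADP and 4.69 to 5.39 in CON. Col1a1 differed by 0.001 ± 0.16 (SE), or -0.09 with the slide block, and Col3a1 by 0.07 ± 0.13, or 0.06 with it. Dcn, which encodes the matrix proteoglycan decorin, differed by 0.27 ± 0.23 (SE), and by 0.46 with the slide block, where it passed with trended, robust variances (limma adjusted p = 0.0268). Pdgfra, a growth factor receptor gene, differed by 0.31 ± 0.27, and by 0.53 with the slide block (0.193 with trended, robust variances). With normexp background correction the unblocked Pdgfra difference was 0.05. Among the 8 macrophage markers, Cd14, a lipopolysaccharide co-receptor gene, differed by 0.79 ± 0.17 and Mertk, an apoptotic cell uptake receptor gene, by -0.61 ± 0.18, and both passed with the slide block and trended, robust variances (limma adjusted p = 0.0210 and 0.0231). The part of these genes' cells in the effector result was not tested.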

How the data were processed

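Per the file headers, the authors extracted each array's spot intensities with Agilent Feature Extraction 10.7.1.1, with spatial and multiplicative detrending switched on, array by array. The deposited intensity values were not scaled between arrays. The deposited value table held the same intensities: after spots marked as outliers were left out, it lay within 0.001 log2 of the scanner files for 100% of 55681 probes. The 0 or 1 flags for background, saturation and outliers, and other columns of that kind, are as deposited.

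Here, control and outlier spots were left out, spots of a probe were averaged, and log2 signals were taken relative to each array's 75th percentile. Probes had to be well above background on all 3 arrays of a group. Names were updated through RefSeq (GRCm38.p6), and each gene was represented by its brightest probe. Of 17 effector genes with several kept probes, 13 had probes all of one sign and 4 had both signs (Isg15, Slfn8, Trim25 and Zbp1). The 48 members match the names in the files. Probe coordinates are those of the files (mm9), without exon annotation. Groups were compared with limma 3.58.1 in R 4.3.3 over 19583 features, two-sided and without a block, with Benjamini-Hochberg adjustment. No list was tested as a set. The fit was tested on simulated data.

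The members, families and other lists were chosen with earlier results of these data known. All members are given, with every array for those at an unadjusted p under 0.05 and for the smallest p of each family (others were added after their values were seen). Of each pathway list the 3 genes with the smallest p are named, and marker genes were picked after their values were seen. Between 50.3% and 51.9% of 59305 spots were well above background, none was saturated, and the number of arrays limits the precision. The alternatives were the slide or the replicate number as a block, trended and robust variances, normexp correction, quantile or no scaling, other filters, the mean of probes and leaving out each array. Median scaling, and trended variances without a block, were added after the data were seen. Deviations from the group means correlated at 0.42, -0.40 and 0.43 between same-numbered arrays for replicates 1 to 3, and at 0.42 to 0.47 between arrays of one slide. Replicates 1 and 3 share a slide between groups and replicate 2 does not. The values thus follow the slides and cannot show whether same-numbered samples share a donor.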

Additional observations from a re-analysis of the deposited data

How the results depend on the processing

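The count of features at an adjusted p under 0.05 was 1938 with the slide block and trended, robust variances, and 0 in the main fit and under every other alternative run. Leaving out each array in turn gave 0 called features, a median of the 46 genes between -0.23 and -0.06 and between 28 and 36 genes below 0. Under the remaining alternatives the median lay between -0.25 (slide block) and -0.09 (value table without scaling), beside -0.17 in the main fit. The list's median on single arrays had a pooled within-group SD of 0.17, about the size of that difference. With the replicate block, 0 features were called, the median was -0.17 and 32 genes were below 0, but whether the replicate numbers pair the samples is not known. Of the 46 genes 31 kept their sign under all 17 alternatives. With the mean of probes the sign turned for Zbp1 (0.064), Isg15 (0.053) and Slfn8 (0.044). It turned with normexp for Parp14 (-0.013), with quantile normalization for Parp14 (-0.059), Ifitm3 (-0.13), Bst2 (-0.075) and Lgals3bp (-0.067), without scaling for Oas3 (0.045) and with median scaling for Ifitm3 (-0.0145) and Slfn5 (-0.017). With the slide block, under either variance model, it turned for Dhx58 (-0.010), Parp14 (-0.056), Lgals3bp (-0.076), Sp100 (-0.052) and Ifi44 (-0.30). Leaving out arrays gave -0.035 to 0.12 for Parp14, -0.029 to 0.12 for Bst2, -0.13 to 0.44 for Ifi44, -0.066 to 0.10 for Ifitm3, -0.0069 to 0.30 for Lgals3bp, -0.24 to 0.11 for Oas1a, -0.21 to 0.087 for Irgm1, -0.23 to 0.0675 for Isg15, -0.21 to 0.020 for Ifi35, -0.16 to 0.11 for Slfn5, -0.21 to 0.075 for Slfn8, -0.019 to 0.14 for Dhx58 and -0.087 to 0.022 for Oas3. The cause was not tested. Precision is limited by 3 arrays a group.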
